A study of Mus musculus with 12 samples.

Results

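Srebf2, Hmgcs1, Sqle, Idi1, Insig1, Fdft1, Lss and Dhcr7 are 8 genes of cholesterol synthesis and its control by the transcription factor SREBP2. They were chosen by name, and each was found once by its Ensembl identifier among the 30630 genes listed for every tumor. All 8 were among the 19018 genes that entered the comparison of the groups. RNA had been sequenced from 12 tumors of CT-26, a mouse colon carcinoma cell line. The cells were injected under the skin of the right flank of male BALB/c mice. The mice were aged 4 to 6 weeks when bought and were injected after a period of adaptation. The control group (n = 6) did not train, and the swimming group (n = 6) was made to swim 2 times a day on 6 days a week, up to 30 min each time, over 3 weeks. Each tumor was from a different mouse of the 10 in a group, no genotype or drug differed between the groups, and both carried the same transplanted line. The tumors were sequenced whole, so RNA of host cells is part of every value, and fewer cells of a type and less RNA per cell cannot be told apart.

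Cells make cholesterol from acetyl-CoA by way of mevalonate, isoprenoids, squalene and lanosterol. SREBP2 is made as a precursor in the membrane of the endoplasmic reticulum. When sterols are plentiful, INSIG proteins hold the precursor and its escort SCAP there. When sterols are scarce, the complex moves to the Golgi, the precursor is cut by a pair of proteases, and the released part enters the nucleus and turns on the genes of the pathway. Srebf2 and Insig1 are themselves targets of SREBP2. Proliferating tumor cells need cholesterol for new membranes.

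The results concern genes that share a regulator, so the windows upstream of 3 of them, chosen for sequences that they hold, are shown. Those of Srebf2 and Hmgcs1 hold TCACCCCA, and that of Insig1 holds CACGTG without TCACCCCA. RefSeq promoter windows on GRCm38.p6, from 250 bases before to 50 after a start site, were found for 6 of the 8 genes and not for Sqle and Fdft1. TCACCCCA, a form of the sterol response element, was searched on both strands and was in the windows of Srebf2, at bases -162 to -155 from the start, and Hmgcs1, at bases -137 to -130. It was in 1.56% of all 32851 windows. The wider form TCACNCCA, which includes it, was in the same 2 genes and in 4.36% of all windows. CACGTG, the palindromic E-box, was in windows of Insig1 and Dhcr7 and in 7.15% of all. CCAAT, bound by NF-Y, was in windows of 6 of the 6 genes on either strand and in 37.4% of all windows, and GGGCGG, the core of an Sp1 site, was in 6 of 6 and in 35.7%. Some genes had several windows, and a match is a description of the letters, not of binding. The sequences read 5′ to 3′ on the plus strand, chr15:82147019-82147180 for Srebf2, chr13:119690101-119690350 for Hmgcs1 and chr5:28071162-28071362 for Insig1, and stop before the annotated gene starts. Capitals mark TCACCCCA, CACGTG and CCAAT, the last seen as ATTGG where it lies on the other strand.
Srebf2: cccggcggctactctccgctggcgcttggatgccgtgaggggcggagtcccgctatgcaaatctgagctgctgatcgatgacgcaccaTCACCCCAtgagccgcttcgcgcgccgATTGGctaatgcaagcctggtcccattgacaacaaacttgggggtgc
Hmgcs1: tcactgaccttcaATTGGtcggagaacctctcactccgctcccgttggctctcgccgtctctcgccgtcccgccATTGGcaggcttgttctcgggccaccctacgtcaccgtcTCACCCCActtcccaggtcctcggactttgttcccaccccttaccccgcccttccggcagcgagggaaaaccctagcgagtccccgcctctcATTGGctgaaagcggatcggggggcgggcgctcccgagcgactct
Insig1: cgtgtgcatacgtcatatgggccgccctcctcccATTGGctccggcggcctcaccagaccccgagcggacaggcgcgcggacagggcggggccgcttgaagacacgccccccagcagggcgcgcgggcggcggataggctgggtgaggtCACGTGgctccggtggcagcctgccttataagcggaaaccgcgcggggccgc

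Levels are in FPKM, the read number per length of the gene and per depth of the tumor, so levels of different genes can be set beside each other. Averaged over the 12 tumors, the regulator Srebf2 was the highest at 32.4 FPKM. Hmgcs1 (23.8), Insig1 (23.5) and Sqle (22.2) followed, then Idi1 (16.2), Fdft1 (12.95), Dhcr7 (5.03) and Lss (4.11). Srebf2 was above Hmgcs1 in 12 of 12 tumors. Hmgcs1 and Insig1 changed places from tumor to tumor, with Hmgcs1 higher in 6 of 12, and so did Insig1 and Sqle, with Insig1 higher in 6 of 12. Sqle was above Idi1 in 12 of 12 and Idi1 above Fdft1 in 11 of 12. Fdft1 was above Dhcr7 in 12 of 12, and this was the only pair of neighbours in the order whose ranges over the tumors did not overlap. The level of Fdft1, and so its place in the order, is uncertain, as its exons overlap those of Ctsb on the opposite strand. Dhcr7 was above Lss in 10 of 12.

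Srebf2, which encodes SREBP2 (chromosome 15, 82147181 to 82205379, plus strand, GRCm38), had a lowest value of 22.3, a median of 33.7 and a highest value of 41.2 FPKM in the control group. In the swimming group these were 27.4, 31.9 and 39.7 FPKM. Controls 1 and 4 lay below every swimming tumor and control 3 above every one, so the range of the swimming group lay inside that of the control group. The mean was 32.1 ± 7.59 FPKM (SD, n = 6) in control and 32.7 ± 5.16 (SD, n = 6) in swimming tumors. The difference in limma was 0.05 on the log2(FPKM + 1) scale (SE 0.15, 95% interval -0.28 to 0.37). It was smaller than the SD of the log2 values, 0.35 in control and 0.22 in swimming tumors. The exact permutation test of the difference in means, two-sided, gave p = 0.779.

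Insig1 encodes one of the proteins that keep the SREBP2 precursor in the endoplasmic reticulum (chromosome 5, 28071363 to 28078662, plus strand). In the control group its lowest, median and highest values were 13.7, 20.6 and 36.5 FPKM, and in the swimming group 20.6, 24.5 and 27.8 FPKM. All 6 swimming tumors were above the control median, while control 3 was above all of them, so the groups overlapped. Insig1 had the largest difference of the 8 genes, with 22.3 ± 8.01 FPKM (SD, n = 6) in control and 24.7 ± 2.86 (SD, n = 6) in swimming tumors, a log2 difference of 0.19 (SE 0.18, 95% interval -0.19 to 0.58). It did not pass the test (exact permutation p = 0.361). Over the settings that left out 1 tumor, the log2 difference of Insig1 ranged from 0.07 to 0.34. It was 0.07 without control 4, with an unadjusted limma p of 0.648. The 0.34 was without control 3, with an unadjusted limma p of 0.024 and an adjusted p of 0.699. Without both control 1 and swimming 5 the difference was 0.10.

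**Figure D1:**
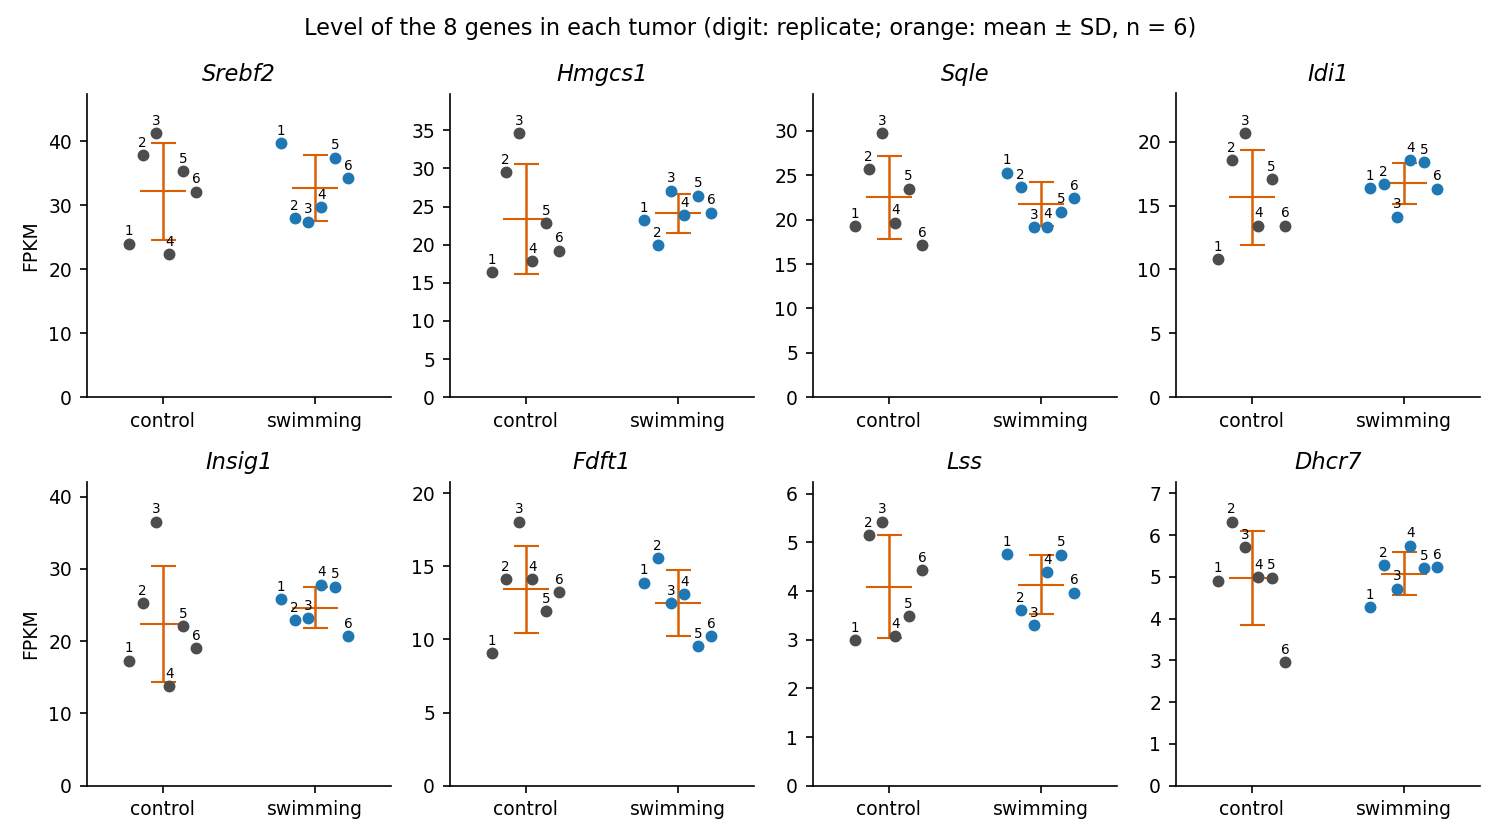
FPKM of each of the 8 genes in the 6 control (grey) and 6 swimming (blue) tumors, with 1 point per tumor, its replicate number above it, and the mean ± SD of each group in orange; every axis starts at 0. The groups overlap in all 8 genes, and the control points are spread more widely, with control 3 at the top in 7 of the 8 genes.

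The early steps are represented by Hmgcs1 and Idi1. Hmgcs1 encodes the synthase that makes HMG-CoA, the precursor of mevalonate (chromosome 13, 119690379 to 119708260, plus strand). Its lowest, median and highest values were 16.4, 21.01 and 34.6 FPKM in control and 19.9, 24.0 and 27.1 FPKM in swimming tumors. Controls 2 and 3 were above every swimming tumor, and controls 1, 4 and 6 were below every one. The means were 23.4 ± 7.23 and 24.1 ± 2.56 FPKM (SD, n = 6 each), a log2 difference of 0.08 (SE 0.16, exact permutation p = 0.645).

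Idi1 encodes the isomerase of isopentenyl diphosphate, the unit from which isoprenoids are built (chromosome 13, 8885501 to 8892451, plus strand). Its lowest, median and highest values were 10.8, 15.3 and 20.7 FPKM in control and 14.1, 16.5 and 18.6 FPKM in swimming tumors. Controls 1, 4 and 6 lay below every swimming tumor and controls 2 and 3 above every one. The means were 15.7 ± 3.72 and 16.7 ± 1.62 FPKM (SD, n = 6 each), a log2 difference of 0.12 (SE 0.13, exact permutation p = 0.444).

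The middle steps convert isoprenoids to lanosterol. Fdft1, squalene synthase (chromosome 14, 63145150 to 63179578, minus strand), is the first enzyme committed to sterols. Its lowest, median and highest values were 9.04, 13.7 and 18.1 FPKM in control and 9.54, 12.8 and 15.6 FPKM in swimming tumors. Only control 3 was above and only control 1 below the swimming range. The means were 13.4 ± 2.96 and 12.5 ± 2.26 FPKM (SD, n = 6 each), a log2 difference of -0.09 (SE 0.14, exact permutation p = 0.574). Exons of Fdft1 share 774 bases, 18.3% of its exon bases, with exons of Ctsb on the opposite strand. Ctsb, a lysosomal protease, averaged 188 FPKM, and the strand setting of the quantification is not given in the sources used here, so the level of Fdft1 is uncertain. Across the 12 tumors log2 Ctsb and log2 Fdft1 had a Pearson r of -0.39 and a Spearman rho of -0.29, given as a description.

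Sqle, squalene epoxidase (chromosome 15, 59315077 to 59331192, plus strand), catalyses a slow, oxygen-dependent step. Its lowest, median and highest values were 17.2, 21.6 and 29.8 FPKM in control and 19.2, 21.7 and 25.3 FPKM in swimming tumors. Controls 2 and 3 were above every swimming tumor and control 6 below every one. The means were 22.5 ± 4.71 and 21.8 ± 2.48 FPKM (SD, n = 6 each), a log2 difference of -0.03 (SE 0.12, exact permutation p = 0.823).

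Lss, lanosterol synthase (chromosome 10, 76531588 to 76557138, plus strand), closes the ring system. Its lowest, median and highest values were 2.99, 3.96 and 5.43 FPKM in control and 3.30, 4.18 and 4.76 FPKM in swimming tumors. Controls 2 and 3 were above and controls 1 and 4 below every swimming tumor. The means were 4.09 ± 1.06 and 4.13 ± 0.607 FPKM (SD, n = 6 each), a log2 difference of 0.03 (SE 0.13, exact permutation p = 0.838).

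Dhcr7 encodes the reductase that makes cholesterol from 7-dehydrocholesterol, the last step of the Kandutsch-Russell branch (chromosome 7, 143823145 to 143848410, plus strand). Its lowest, median and highest values were 2.97, 4.99 and 6.33 FPKM in control and 4.28, 5.22 and 5.75 FPKM in swimming tumors. Control 6 stood below all other tumors and control 2 above them. The means were 4.98 ± 1.13 and 5.08 ± 0.511 FPKM (SD, n = 6 each), a log2 difference of 0.04 (SE 0.13, exact permutation p = 0.794). Hmgcs1, Idi1 and Lss also overlap weakly expressed or unlisted antisense genes in their exons. The 2 of these that were listed averaged 0.264 FPKM for Hmgcs1 and 0.184 FPKM for Lss.

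After adjustment in limma, 0 of the 8 genes passed 0.05 (adjusted p 0.934 to 0.986), where 0.0% of all genes tested did, the smallest adjusted p of any gene being 0.204. At an unadjusted p below 0.05 there were also 0 of 8 genes, against 5.56% of all genes in either direction and 3.11% higher in swimming tumors. In 0 of 8 genes did the values of the groups not overlap, against 0.147% of all genes. The log2 fold change was above 0 in 6 of 8 genes, where it was for 51.7% of all genes, with a median of 0.05 for the 8 genes and 0.00 for all. This direction rested on few tumors. It was above 0 in 3 of 8 genes without control 1, in 4 of 8 without control 4 or without swimming 1, and in 2 of 8 without both control 1 and swimming 5. It was above 0 in 7 of 8 genes without control 2, control 3, swimming 3 or swimming 4. The 95% intervals of the 8 differences had half-widths from 0.26 (Sqle) to 0.39 (Insig1) on the log2 scale.

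Control 1 and swimming 5 had the most RNA of adipocyte markers, summed over 7 genes, at 183 and 45.2 FPKM, where the other tumors ranged from 6.92 to 18.9 FPKM. In control 1 the largest parts of the sum were Cfd at 103 FPKM and Fabp4 at 44.7 FPKM. Cidec was at 13.1, Adipoq at 12.6, Retn at 5.86 and Plin1 at 3.33 FPKM there. In swimming 5 the largest were Fabp4 at 20.3 and Cfd at 16.8 FPKM. In control 3, which had the lowest sum, Fabp4 was at 6.62 FPKM. Lep was under 0.5 FPKM in every tumor. The part of host fat in the levels of the 8 genes was not tested. Of 8 T and NK cell markers, 4 were higher in swimming tumors at an unadjusted p below 0.05, where 3.11% of all genes were. The sum of the 8 ranged from 3.99 to 9.37 FPKM in control and from 6.63 to 16.3 FPKM in swimming tumors. Of 10 proliferation markers, 3 were higher at an unadjusted p below 0.05 (3.11% of all genes), with sums from 415 to 487 and from 436 to 573 FPKM. For both lists 0 genes had an adjusted p below 0.05, and their part in the result was not tested. Of 10 markers of colon epithelium, Epcam, Cdh1, Vil1, Cdx2 and Cldn7 were under 0.5 FPKM in every tumor, while Krt20 was between 99.8 and 194 FPKM. In the lists for fibroblasts, macrophages, endothelium, adipocytes, skeletal muscle and colon epithelium, 0 of the markers tested had an unadjusted p below 0.05. Endothelial markers summed to between 22.9 and 38.7 FPKM in control and between 23.8 and 36.7 FPKM in swimming tumors. Skeletal muscle markers summed to between 1.88 and 204 FPKM in control and between 1.27 and 298 FPKM in swimming tumors.

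A list of 13 other enzymes of cholesterol synthesis had a log2 fold change above 0 in 13 of 13, where 51.7% of all genes did. It was between 0.03 and 0.22 with a median of 0.10, and 0 of 13 had an unadjusted p below 0.05. Fdps, which makes farnesyl diphosphate, had the largest difference of the list at 0.22 (SE 0.13, exact permutation p = 0.160). Its values were lowest, median and highest at 18.6, 24.7 and 34.0 FPKM in control and at 24.7, 28.2 and 33.2 FPKM in swimming tumors. All 6 swimming tumors were above the control median of Fdps, and the groups overlapped. Mvd, the decarboxylase of the mevalonate steps, differed by 0.15 and Nsdhl, a demethylating enzyme of the lanosterol branch, by 0.15. Cyp51 (0.09) and Msmo1 (0.05) belong to the same branch. The 13 of 13 fell to 10 without control 1, to 11 without swimming 5 and to 12 without control 4, swimming 1 or swimming 2. Without both control 1 and swimming 5 it fell to 8. The genes share their tumors, so these are not 13 independent counts.

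**Figure D2:**
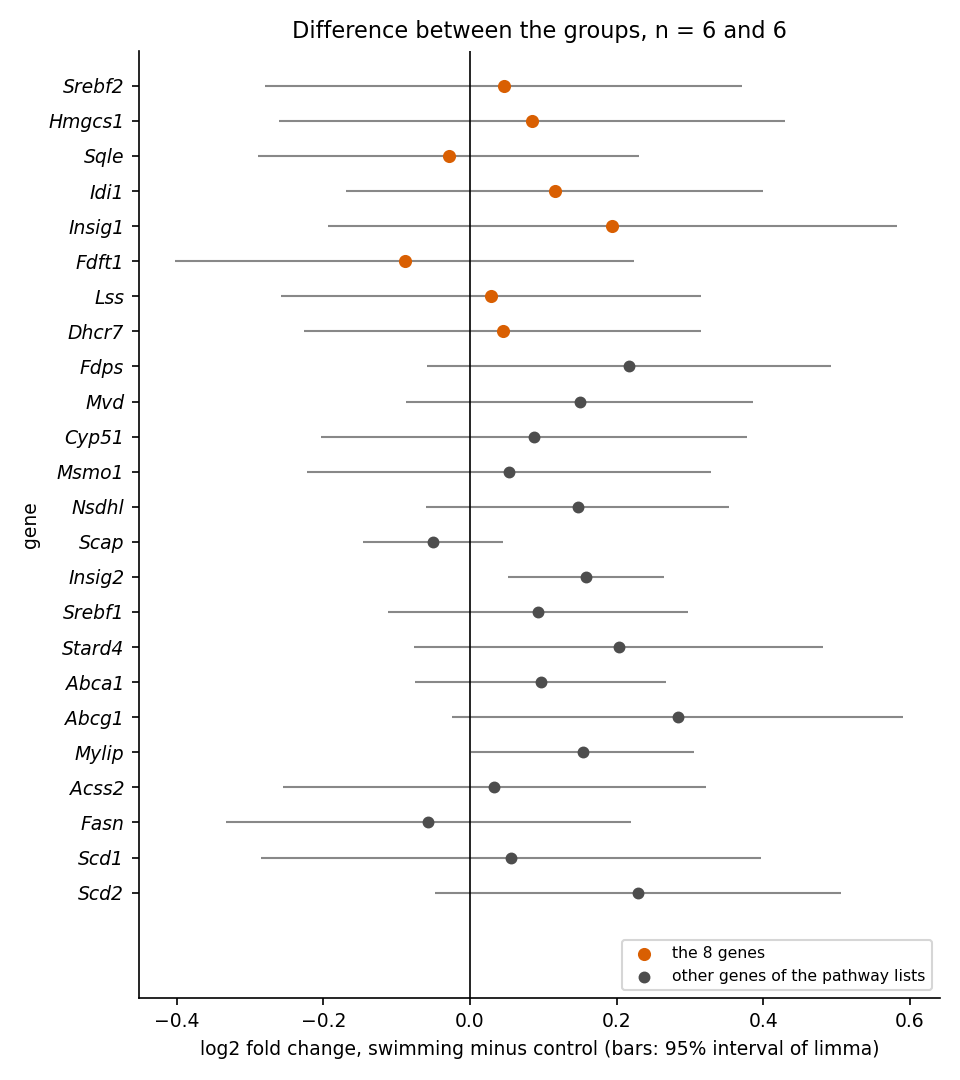
log2 fold change of the swimming group minus the control group on the log2(FPKM + 1) scale, with the 95% interval of limma as bars, for the 8 genes (orange) and 16 other named genes of the pathway lists (grey), n = 6 tumors in each group. The interval includes 0 for all 8 genes, and lies above 0 for Insig2 and Mylip before adjustment over all genes.

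Among 11 genes of SREBP processing and its control, 1 was higher and 0 were lower at an unadjusted p below 0.05, and 0 passed after adjustment. Of all genes, 5.56% had an unadjusted p below 0.05. Insig2, the other INSIG protein, had its lowest, median and highest values at 11.4, 12.1 and 13.8 FPKM in control and at 13.01, 14.1 and 14.3 FPKM in swimming tumors. All swimming tumors were above 5 of the 6 controls, and control 3 lay inside the swimming range. Its log2 difference was 0.16 (SE 0.05, exact permutation p = 0.00649, adjusted p in limma 0.889). Scap differed by -0.05 (SE 0.04) and Srebf1, which encodes SREBP1, by 0.09 (SE 0.09).

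Of 10 genes of cholesterol uptake and transport inside the cell, 0 had an unadjusted p below 0.05. Stard4, a carrier of cholesterol, differed by 0.20 (SE 0.13, exact permutation p = 0.177). Of 11 genes of LXR, efflux and esterification, 1 had an unadjusted p below 0.05, where 5.56% of all genes did. It was Mylip, a ubiquitin ligase induced by LXR, higher by 0.15 (SE 0.07, adjusted p in limma 0.889, exact permutation p = 0.0519). This call of Mylip was lost in 11 of 21 alternative settings, trimmed mean scaling among them (unadjusted p 0.0193 to 0.108 over the settings). The efflux transporters Abca1 and Abcg1 differed by 0.10 (SE 0.08) and 0.28 (SE 0.14). Among 12 genes of fatty acid synthesis under SREBP1, 6 had a log2 fold change above 0 and 0 had an unadjusted p below 0.05. Fasn, fatty acid synthase, differed by -0.06, Scd1 and Scd2, both desaturases, by 0.06 and 0.23, and Acss2, which makes acetyl-CoA from acetate, by 0.03. Among 10 genes of the other branches from mevalonate, 4 had a log2 fold change above 0 and 0 had an unadjusted p below 0.05.

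The levels of the 8 genes were more widely spread in the control than in the swimming group. The SD of the log2 values was larger in the control than in the swimming group for 8 of 8 genes, where it was for 55.0% of all genes tested. It was also larger for 9 of 13 other enzymes of the pathway, 9 of 11 genes of SREBP processing and 9 of 12 of fatty acid synthesis, and for 5 of 10 genes of uptake and transport, 5 of 11 of LXR and efflux and 6 of 10 of the other branches from mevalonate. Among the markers tested it was larger for 7 of 8 of fibroblasts, 7 of 9 of macrophages, 5 of 5 of adipocytes and 4 of 6 of colon epithelium. For endothelium it was 3 of 6, for T and NK cells 3 of 8, for proliferation 2 of 10 and for skeletal muscle 0 of 8. The SD of the control group was 2.86 times that of the swimming group for Insig1, 2.70 times for Hmgcs1, 2.46 times for Dhcr7 and 2.44 times for Idi1, and 1.23 times for Fdft1 at the low end. The absolute deviations of the tumors from the median of their group were compared by a two-sided permutation test over all divisions of the tumors. The medians were not taken anew in each division, so these p are approximate. The deviations were larger in control tumors for Hmgcs1 (permutation p = 0.0433) and Idi1 (permutation p = 0.0238). So 2 of 8 genes had p below 0.05 against 3.29% of all genes. After adjustment over all genes 0 of the 8 passed (smallest adjusted p 0.842), and 0 of all genes did. The count of 8 of 8 became 7 of 8 without control 1 or without control 3. The genes share their tumors and were correlated, so these are not 8 independent counts. This measure of spread was chosen after the data were seen.

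The spread in the control group came from tumors that were high or low in most of the genes. The mean over the 8 genes of the log2 level minus the gene's own mean was 0.42 in control 3 and 0.23 in control 2, and -0.35 in control 1, -0.26 in control 4 and -0.19 in control 6. In the swimming group it ranged from -0.08 to 0.10. Control 3 was among the 3 highest tumors in 8 of 8 genes and control 2 in 6 of 8, while control 1 was among the 3 lowest in 6 of 8. Control 3 had the lowest sum of 9 macrophage markers, 674 FPKM, against 749 to 1015 FPKM in the other controls and 796 to 1175 FPKM in swimming tumors. Control 1 had the highest sum of 8 fibroblast markers, 808 FPKM. Swimming 5 had the next highest, 777 FPKM, and a mean over the 8 genes of 0.08. Control 2 had the lowest depth relative to control 1, 0.694 against 0.871 to 0.973 in the rest. The part of these in the levels was not tested.

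**Figure D3:**
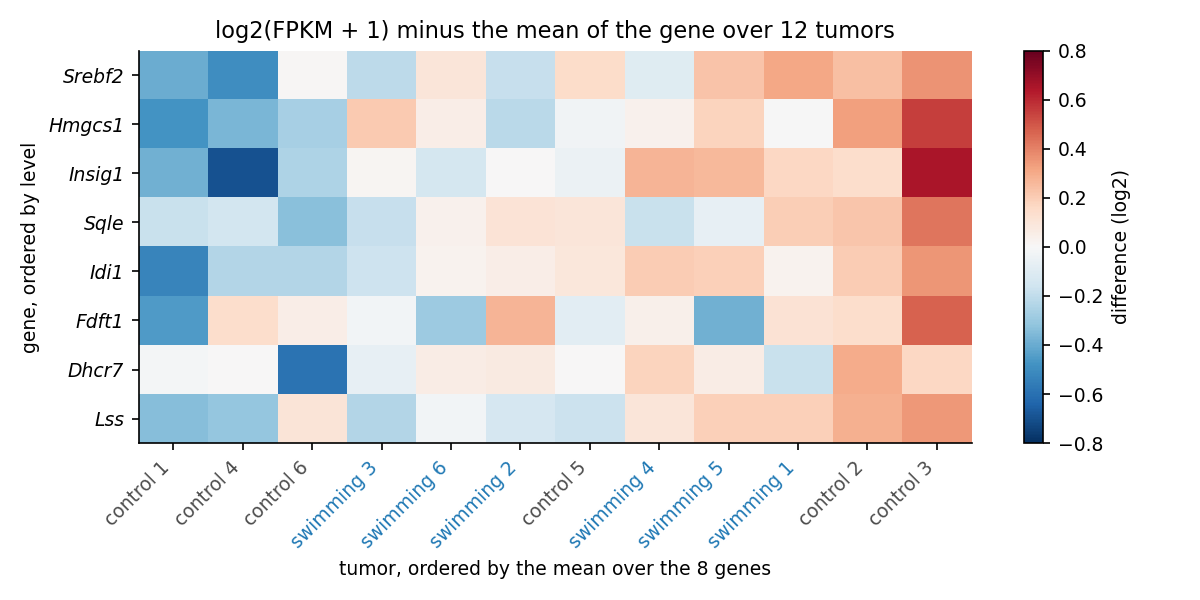
Color map of log2(FPKM + 1) minus the mean of the gene over the 12 tumors, with the 8 genes in rows from the highest to the lowest level and the tumors in columns from the lowest to the highest mean over the 8 genes (control labels grey, swimming labels blue). Control tumors take the 3 lowest and the 2 highest columns, from a mean of -0.35 in control 1 to 0.42 in control 3, and swimming tumors lie between them.

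Levels of the 8 genes were positively correlated across tumors. Over the 12 tumors the Pearson r of log2 levels was above 0 in 28 of 28 pairs, with a median of 0.58 (0.10 to 0.86), and the Spearman rho in 28 of 28, with a median of 0.53. The median r of each of the 8 genes to all other genes tested was between -0.03 and 0.05. The pairs share genes and tumors, so they are not independent. Srebf2 and Lss were the closest pair (r = 0.86, permutation p = 0.0004, and rho = 0.90, permutation p = 0.00021, 28 pairs computed). Without the 2 tumors farthest from the median of Srebf2, controls 1 and 4, their r was 0.76. Hmgcs1 and Insig1 had r = 0.84 (permutation p = 0.00061) and rho = 0.77 (permutation p = 0.00504), and r = 0.72 without controls 1 and 3. Idi1 and Insig1 had r = 0.83 (permutation p = 0.00101) and rho = 0.85 (permutation p = 0.00105), and r = 0.79 without controls 1 and 3. For each pair the 2 tumors farthest from the median of its first gene, in the order of the opening list, were left out. The second gene was not used for this choice. The median r was then 0.49, and r was above 0 in 26 of 28 pairs.

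Each gene was next fitted in limma with the group and the level of 1 of the 8 genes as covariates, so that the difference between the groups was taken out. At an unadjusted p below 0.05 with a positive slope, Srebf2 varied with 5 of the other 7 genes (2.96% of all genes did), Hmgcs1 with 5 (3.11%), Sqle with 4 (2.22%), Idi1 with 5 (3.67%), Insig1 with 5 (4.69%) and Lss with 4 (4.25%). Fdft1, whose level is uncertain, varied with 0 of 7 (3.06% of all genes) and Dhcr7 with 0 of 7 (1.57%). Counted once, 14 of 28 pairs passed from both sides, and all 14 were among the 15 pairs of Srebf2, Hmgcs1, Sqle, Idi1, Insig1 and Lss, where r was between 0.53 and 0.86. The pairs with Fdft1 or Dhcr7 had r between 0.10 and 0.54. After adjustment over all genes 0 pairs passed (smallest adjusted p 0.306), and 0.0% of the gene-covariate tests did in the fits of the 8 genes. Of the 56 fits of 1 gene on another, the 28 with p below 0.05 and a positive slope became 19 without control 3.

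Within the groups the pairs differed. In the control group r was above 0 in 28 of 28 pairs with a median of 0.78, and in the swimming group in 14 of 28 pairs with a median of 0.04 (-0.72 to 0.84). The r of the control group was the larger in 27 of 28 pairs. The pairs share genes and tumors, so these are not 28 independent counts, and the same counts were not made over all genes. Hmgcs1 and Sqle had r = 0.92 in control and -0.63 in swimming tumors, while Srebf2 and Lss had r = 0.87 and 0.84. Of 56 slopes of 1 gene on another, 51 were lower in the swimming group. These are the 28 pairs taken in both directions, and the share of lower slopes over all genes was not counted. In 11 of 56 the slope was lower in the swimming group with an unadjusted p below 0.05 for the difference in limma, against 2.16% of all gene-covariate tests in that direction, and 0 passed adjustment. The spread of the swimming group was also smaller, its part in these r was not tested, and each r rests on 6 tumors. Without control 3 the median r of the control group was 0.65 and r was above 0 in 27 of 28 pairs. This comparison of slopes was chosen after the data were seen.

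**Figure D4:**
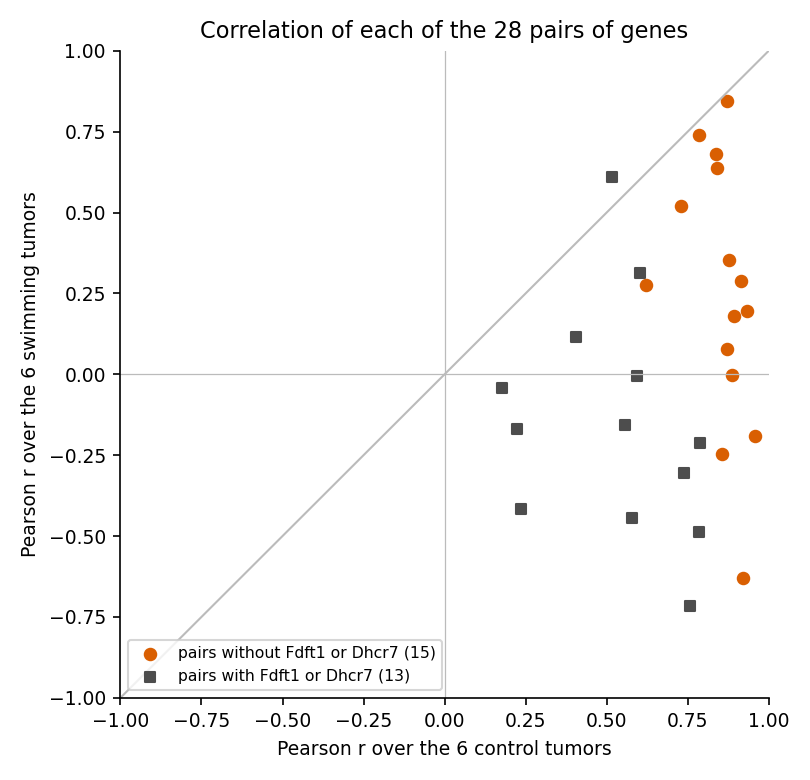
Pearson r of the log2 levels of each of the 28 pairs of genes over the 6 control tumors (horizontal axis) and over the 6 swimming tumors (vertical axis), with the line of equal r; circles are the 15 pairs without Fdft1 or Dhcr7 and squares the 13 pairs with them. All 28 points are right of 0 on the control axis, 14 are above 0 on the swimming axis, and 27 of 28 lie below the line.

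Among 12781 genes with a mean of at least 1 FPKM, the 10 with the highest mean r to the 8 genes over the 12 tumors included Megf9, 4930518I15Rik, Lrp6, Cyp51, Ppm1l, Mvd, Stard4 and Mllt10, with mean r from 0.72 to 0.68. Of these 8 genes, 3 belong to the pathway lists, Cyp51 and Mvd as enzymes of the pathway and Stard4 as a carrier of cholesterol. The levels of these 3 were highest in control 2 or swimming 5 and lowest in control 1. Of the 13 other enzymes, 9 were among the 5% of genes with the highest mean r and 6 among the highest 1%, with a median of 0.56 where the median of all genes was 0.03. Msmo1 (0.64), Sc5d (0.62) and Nsdhl (0.62) were near the top, and Ebp (0.18) and Tm7sf2 (-0.29) were not. The medians of the other lists were 0.09 for fatty acid synthesis, 0.13 for the other branches from mevalonate, 0.00 for SREBP processing, -0.05 for uptake and transport and -0.09 for LXR and efflux. Of the fatty acid list 3 of 12 were among the highest 5%, Fads2 (0.58), Fads1 (0.55) and Scd2 (0.55), and of SREBP processing 2 of 11, Rnf139 (0.49) and Fbxw7 (0.45). Of uptake and transport it was 1 of 10, Stard4, of LXR and efflux 1 of 10, Mylip (0.45), and of the other branches 0 of 10. These r are over the same 12 libraries and are given as a description.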

How the data were processed

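RNA-Seq was performed on 12 tumors after removal of ribosomal RNA. Per the methods of the study and the submitters' processing notes, the authors mapped reads with HISAT2 2.0.5 and quantified genes with StringTie 1.3.3. The values deposited by the authors are FPKM per gene, divided by gene length and by depth, without read numbers. Depth is therefore unknown in absolute terms, and counting errors were not given. The sum of FPKM per tumor was 380139 to 407109, with 22293 to 23974 genes above 0. Depth relative to control 1 came from the ratios of low values. The methods name hg38, the notes name hg38 and GRCm38, and the identifiers are those of mouse genes. Symbols, for 30542 of 30630 genes, and coordinates were matched by identifier to GENCODE M21 on GRCm38, and promoter sequences are from RefSeq on GRCm38.p6.

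Groups were taken from the labels. Values were compared as log2(FPKM + 1), which understates changes of low genes, for the 19018 genes that reached 0.1 FPKM in 6 or more tumors, with lmFit and eBayes with a trend in limma 3.58.1 (R 4.3.3) and Benjamini-Hochberg adjustment over all genes. Exact permutation tests were two-sided over all 924 divisions into 6 and 6, whose smallest p is 0.00216. The test of deviations used the same divisions with the deviations kept fixed, and its p are approximate. Correlations used 100000 permutations. The limma fits of the group and of the level of 1 gene, Hmgcs1, as covariate were run on simulated data. That check did not cover the permutation tests or the comparison of slopes. Python 3.11.15, pandas 2.3.3, numpy 2.4.6, scipy 1.17.1 and matplotlib 3.10.9 were used.

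The 8 genes, the 6 pathway lists (67 genes) and the 8 marker lists were chosen with earlier results of these data known. Named are the 8 genes, 16 pathway genes fixed by name (Fdps, Mvd, Cyp51, Msmo1, Nsdhl, Scap, Insig2, Srebf1, Stard4, Abca1, Abcg1, Mylip, Acss2, Fasn, Scd1 and Scd2), any other pathway gene at an unadjusted p below 0.05, of which there were 0, and 8 of the 10 genes with the highest mean r to the 8. Some genes that the lists or the rule held are not reported here. Ctsb, markers, and genes given only with a mean r were named after their values were seen. Alternatives were pseudocounts of 0.1 and 0.01, no filter, a filter of 1 FPKM, quantile normalization, trimmed mean scaling, eBayes without trend, the replicate block, and leaving out each tumor.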

Additional observations from a re-analysis of the deposited data

Results flagged for a closer look

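Of 76 groups of 6 values looked at, for the named genes and the summed markers, 7 had 1 tumor far from the other 5 by Dixon's ratio, where chance gives 3.8. None of them was a value of the 8 genes. Insig2 was at 13.8 FPKM in control 3, against 12.2 FPKM or less in the other controls. In control 1, Abcg1 was at 4.67 FPKM and Fasn at 48.6 FPKM, each the highest of the control group, and the adipocyte markers summed to 183 FPKM. In swimming 5 the adipocyte markers summed to 45.2 FPKM and the macrophage markers to 1175 FPKM. The skeletal muscle markers summed to 204 FPKM in control 6. Fasn is strongly expressed in fat as well as in tumor cells, and the part of fat in its value was not tested.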

How the results depend on the processing

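Of 503 values of the 8 genes and 16 other named genes under 21 alternative settings, 475 kept their direction and 0 passed an adjusted p of 0.05. The 28 reversals, in 11 genes, came from leaving out tumors. Over settings that left out 1 tumor the log2 fold change ranged from -0.049 to 0.12 for Srebf2, -0.0026 to 0.20 for Hmgcs1, -0.099 to 0.053 for Sqle, -0.037 to 0.10 for Lss, -0.069 to 0.11 for Dhcr7, -0.020 to 0.17 for Cyp51, -0.044 to 0.13 for Msmo1, -0.057 to 0.097 for Acss2, -0.12 to 0.058 for Fasn and -0.055 to 0.17 for Scd1. Leaving out control 1 and swimming 5, a setting chosen after the data were seen, gave -0.069 for Srebf2, -0.029 for Hmgcs1, -0.0046 for Idi1, -0.072 for Lss, -0.037 for Cyp51, -0.015 for Msmo1 and -0.0012 for Acss2. With 1 tumor left out, 0 to 3 of all genes had an adjusted p below 0.05 (3 without control 4, 2 without swimming 1), none of them among the 8, and 0 to 1 of the 8 had an unadjusted p below 0.05 (Insig1, without control 3). The cause was not tested. The pair fits with p below 0.05 and a positive slope numbered 19 to 33 with 1 tumor left out and 24 to 30 in the other settings.

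Same-numbered tumors are from different mice. The correlation of their deviations within groups averaged -0.12, compared with 0.02 for tumors of other numbers, with 0 of 6 above 0.1. No pairing by number was seen in these 6 correlations. With the replicate block, 892 genes had an unadjusted p below 0.05 in place of 1058, 0 an adjusted one, and 24 pair fits passed in place of 28.

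With 6 tumors a group, no read numbers and no strand information, small changes in these genes and the level of Fdft1 could not be resolved.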
